A study of Drosophila melanogaster with 12 samples.

Results

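Bari1, Bari2, mariner2, pogo, and S-element are the 5 Tc1/mariner DNA transposons examined here, through the piRNAs that bound the PIWI proteins Aub, Ago3, and Piwi in Drosophila ovaries. They were chosen by name, with no measured value in the rule, and are 5 of the 126 transposons listed over the 12 libraries. Their FlyBase identifiers are FBgn0005773 for Bari1, FBgn0064134 for Bari2, FBgn0063401 for mariner2, FBgn0003122 for pogo, and FBgn0004905 for S-element. All 5 passed the filter on low values (a mean of at least 100 counts), as did 123 transposons in all. The authors' column of germline and soma classes leaves each of the 5 without a class.

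Tc1/mariner elements are cut-and-paste transposons. A transposase, encoded by intact copies, binds the inverted repeats at the element's ends, excises the element, and inserts it at a TA dinucleotide, and deleted copies can be moved by a transposase made elsewhere. In the fly germline, piRNAs guide PIWI proteins to transposon transcripts. Aub typically carries antisense piRNAs and cleaves sense transcripts, Ago3 typically carries the sense piRNAs made from those cuts, and cleavage by Ago3 of antisense precursors feeds Aub again, a cycle called ping-pong. Piwi acts in the nucleus, where it silences transcription and is loaded mainly with antisense piRNAs. The sense share, the percentage of an element's piRNAs that match its sense strand, is therefore a measure of how the strands are divided between the proteins.

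The ovaries came from flies 2 to 5 d old. The aubWT and aubRK flies lacked endogenous Aub (aub[QC42/HN2]) and expressed an HA-tagged transgene from UAS under nos-Gal4, a germline driver, so that Aub was made in germ cells only. The transgene was wild type in aubWT and carried lysines in place of the methylated N-terminal arginines in aubRK. Both genotypes had 1 library each for Aub and Ago3, and Piwi had 1 in aubWT and 2 in aubRK. Ovaries of csul[RM50], a loss-of-function allele of the arginine methyltransferase PRMT5, and of w1118 (w below) gave 1 library each for Aub and for Ago3, and y[1] w[1] (y w below) gave 1 for Ago3. These 3 genotypes carry endogenous Aub and no aub transgene. Strain background and genotype cannot be told apart in any comparison, because each genotype is a different stock. The csul and w libraries were made with other antibodies for Aub and Ago3 and by another protocol than the rest, so changes were computed for them only against each other, and where their values stand beside the rest below, protocol and genotype cannot be told apart.

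Between 1338017 and 47217032 read copies per library lay on transposons, and 3 counts corresponded to between 0.0635 and 2.24 CPM, counts scaled to a library total of 1000000. The 3 libraries with a random barcode (Ago3 aubWT, Piwi aubWT, and the second of Piwi aubRK) count each molecule once. In the other 9, read copies include PCR duplicates, and the files also give entries, which count identical reads once. Read copies per entry were 28.0 and 39.1 in Aub aubRK and aubWT and between 5.57 and 8.25 in the other 7. In the 3 barcoded libraries entries equal read copies and so count molecules. A comparison over entries between a barcoded library and another therefore sets molecules against distinct reads. Each condition other than Piwi aubRK had 1 library, so no p-value was computed, and the 95% intervals given cover counting error only. In these bulk samples fewer germ cells and less RNA per cell cannot be told apart.

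The 5 elements differ in their annotated copies. In the BDGP6 annotation of the reference strain, which is not one of the strains studied and is a later build than the dm3 the authors aligned to, Bari1 has 10 insertions with a median length of 1728 bp. Of these, 7 are intergenic and 2 intronic, and 1 lies in an exon of Cyp12a4, a cytochrome P450 gene, on chromosome 3R at positions 19137125 to 19138864, plus strand. Bari2 has 5 insertions of 151 to 1197 bp, 4 of them intronic. mariner2 has 23 insertions of 71 to 1110 bp, 9 of them intronic. pogo has 50 insertions of 30 to 2123 bp with a median of 186 bp, of which 23 are intronic, 7 exonic, and 20 intergenic. S-element has 78 insertions with a median of 1296 bp, of which 33 are intronic, 4 exonic, and 41 intergenic. A few of the intronic insertions lie in AGO3 and AGO2 and are named here because these genes act in small RNA pathways. The other intronic insertions lie in other genes, and whether genes of small RNA pathways hold more insertions than the rest was not tested. AGO3, the gene of Ago3, holds mariner2 insertions on chromosome 3L from 23570563 to 23571406 and from 23649728 to 23650186 and an S-element from 23580900 to 23583068, all on the minus strand. AGO2, which encodes the Argonaute of the siRNA pathway, holds an S-element on 3L at positions 15554974 to 15556705, plus strand. The piRNA counts are sums over all copies that resemble a consensus sequence and cannot be assigned to single insertions.

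Together the 5 elements took between 0.440% (Ago3 csul) and 1.99% (Aub aubWT) of the read copies on transposons. With Aub they took 1.99% in aubWT, 1.86% in aubRK, 0.741% in w, and 0.476% in csul. With Ago3 they took 1.63% in aubWT, 1.19% in aubRK, 0.707% in y w, 0.705% in w, and 0.440% in csul. With Piwi they took 1.09% in aubWT and 1.17% and 1.05% in the 2 aubRK libraries. For each protein measured in those genotypes the share was higher in aubWT and aubRK than in w, csul, or y w, and the 3 Piwi libraries lay close together.

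Bari1, an element with a single transposase gene, was at 7940 CPM with Aub in aubWT, 11044 in aubRK, 2837 in w, and 1908 in csul. With Ago3 it was at 9694 CPM in aubWT, 7224 in aubRK, 4125 in y w, 2729 in w, and 1474 in csul. With Piwi it was at 4568 CPM in aubWT and at 6712 and 6167 in the 2 aubRK libraries. Bari1 was thus lower in w and csul than in the genotypes with a transgene for both Aub and Ago3, and both Piwi aubRK libraries were above the aubWT library.

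pogo, the founder of the pogo branch of this superfamily, was at 4273 CPM with Aub in aubWT, 1965 in aubRK, 1651 in w, and 855 in csul. With Ago3 it was at 1927 CPM in aubWT, 1374 in aubRK, 372 in y w, 1822 in w, and 1033 in csul. With Piwi it was at 2972 CPM in aubWT and at 1724 and 2026 in the 2 aubRK libraries. Over read copies pogo was lower in aubRK than in aubWT with each of the 3 proteins, and the y w library had the lowest level of the 12. Over entries its level with Ago3 was 1934 CPM in aubRK and 1927 in aubWT, so no fall was seen there.

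S-element was at 7548 CPM with Aub in aubWT, 5426 in aubRK, 2903 in w, and 1986 in csul. With Ago3 it was at 4657 CPM in aubWT, 3182 in aubRK, 2528 in y w, 2482 in w, and 1879 in csul. With Piwi it was at 3265 CPM in aubWT and at 3182 and 2327 in the 2 aubRK libraries. Of the 5 elements S-element varied least, 4.02-fold between its highest and lowest library, against 7.49-fold for Bari1 and 11.5-fold for pogo.

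mariner2 and Bari2 gave few piRNAs. mariner2 was at 85.6 CPM with Aub in aubWT, 177 in aubRK, 19.5 in w, and 8.28 in csul. With Ago3 it was at 14.1 CPM in aubWT, 71.5 in aubRK, 33.5 in y w, 12.5 in w, and 8.31 in csul. With Piwi it was at 41.7 CPM in aubWT and at 86.2 and 7.47 in the 2 aubRK libraries, so that these libraries of one genotype stood on either side of aubWT. Bari2 ranged from 2.22 CPM (Ago3 csul) to 17.7 CPM (Ago3 aubRK), and was at 8.98 CPM with Aub in aubWT and 9.29 in aubRK. The 238 and 140 read copies of Bari2 in these Aub libraries stand for only 9 entries each, and the 2269 and 2663 of mariner2 for 39 and 58.

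**Figure D1:**
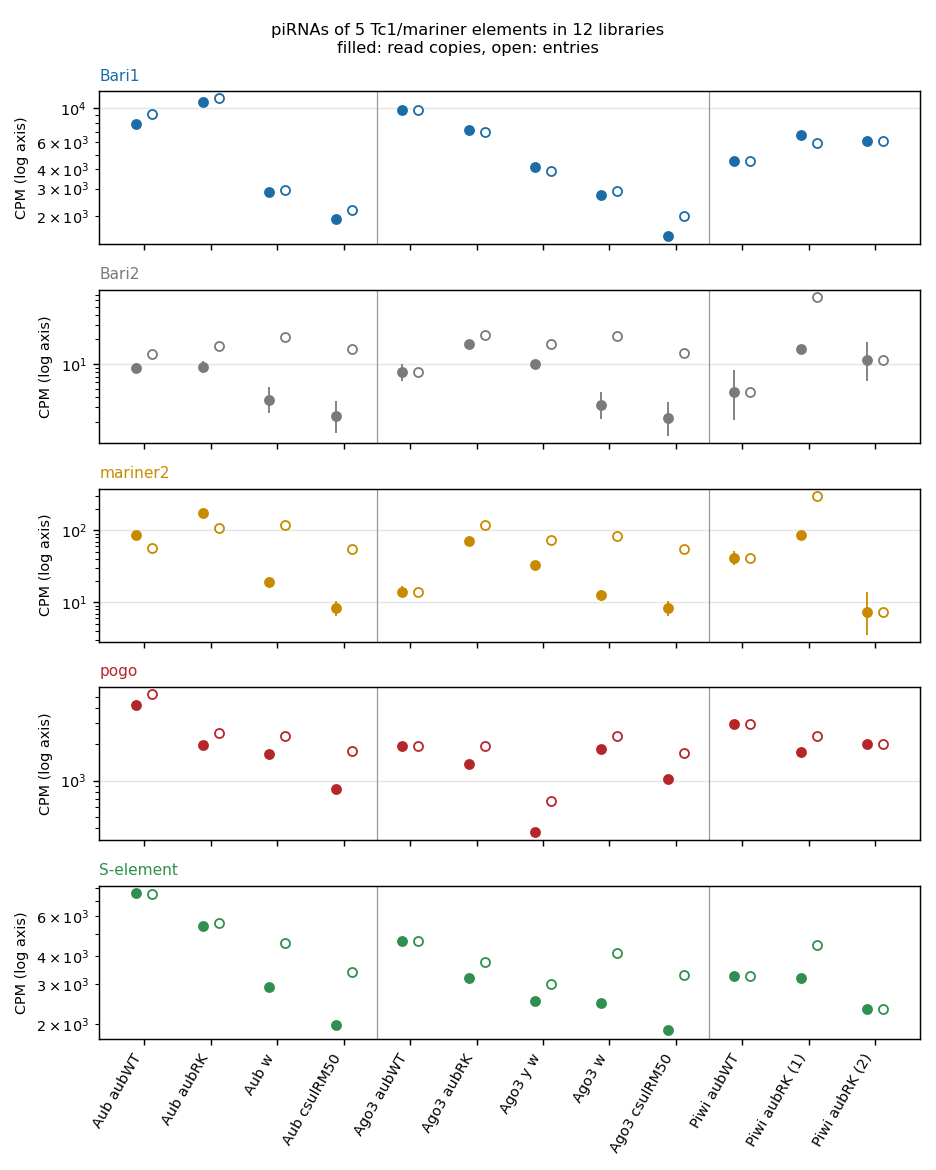
CPM of each element (rows, log axes) in the 12 libraries, grouped by protein. Filled points are read copies with 95% exact Poisson intervals, often smaller than the point, and open points are entries. Bari1 runs from 1474 to 11044 CPM with w and csul at the bottom, pogo is lowest in Ago3 y w at 372 CPM, and the open points of Bari2 and mariner2 lie far from the filled ones in w and csul and in the first Piwi aubRK library.

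The number of read copies behind each entry set how far the rarer elements could be read. In w and csul, Bari2 and mariner2 had between 1.07 and 1.36 read copies per entry with either protein, against 6.52 to 8.25 over all transposons in those libraries. In Aub aubWT mariner2 had 58.2 per entry, above the 39.1 of the library. Bari1 stayed between 6.11 and 7.99 in the 7 libraries other than Aub aubWT and aubRK.

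**Figure D2:**
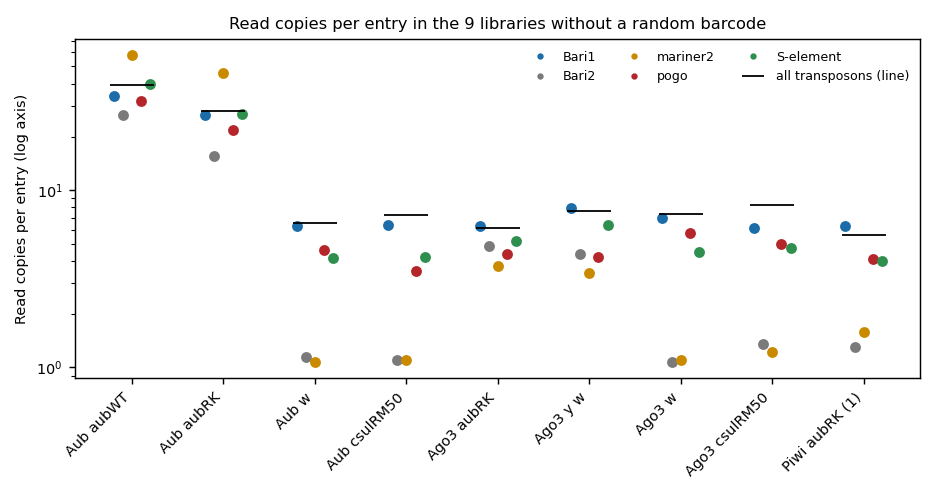
Read copies per entry (log axis) of the 5 elements (coloured points) and of all transposons (black lines) in the 9 libraries without a barcode. Bari2 and mariner2 are near 1 in w and csul, where the library values are 6.52 to 8.25, and all elements are far higher in Aub aubWT and aubRK.

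Changes in level were taken as log2 of the ratio of CPM + 1, relative to the median over the 123 transposons, and called past 2-fold. This asks whether an element gained or lost within the transposon piRNAs bound to a protein, not whether its absolute amount changed. With Aub, pogo was lower in aubRK than in aubWT by a relative log2 value of -1.30 (95% interval -1.32 to -1.28), and by -1.28 over entries. S-element stood at -0.65, Bari2 at -0.13, Bari1 at 0.30, and mariner2 at 0.86, none past 2-fold. Of all transposons 14.6% were past 2-fold in this comparison, so 1 of 5 is near the background. pogo was the only element of the 5 that passed under each of the 3 other scalings as well, and sense counts alone gave it -0.63 and antisense counts alone -1.43.

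With Ago3, Bari1 (-1.20), pogo (-1.27), and S-element (-1.33) were lower in aubRK than in aubWT and mariner2 was higher (1.48), while Bari2 stood at 0.28. The background was 46.3%, the highest of the genotype comparisons. Here the median of all transposons moved by 0.78 on the log2 scale. Without that centring the values were -0.42 for Bari1, -0.49 for pogo, and -0.55 for S-element, and with TMM factors -0.85, -0.92, and -0.98, so the 3 elements passed 2-fold only with centring or with DESeq2 size factors. mariner2 passed under all of these, from 124 read copies in aubWT and 1230 in aubRK. The random barcode was present in Ago3 aubWT and absent in Ago3 aubRK, so that the adaptor and the genotype cannot be told apart in this comparison.

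Against the y w library, which has the same adaptor as Ago3 aubRK, the direction was the opposite for Bari1, pogo, and S-element and the same for mariner2 and Bari2. Against y w, the relative log2 values in aubRK were 2.04 for pogo, 1.23 for mariner2, 0.97 for Bari1, 0.91 for Bari2, and 0.49 for S-element, all above the median of all transposons. pogo and mariner2 were past 2-fold, beside a background of 25.2%. Over entries Bari1 passed in place of mariner2. Both wild-type references also differed from each other. In y w against aubWT, pogo stood at -3.35, Bari1 at -2.22, S-element at -1.86, Bari2 at -0.67, and mariner2 at 0.21, beside a background of 42.3%. The level of Bari1, pogo, and S-element with Ago3 in aubRK thus lay between those of the 2 references. These comparisons share libraries and are not independent.

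With Piwi, aubRK had 2 libraries, of which only the second carried the barcode, so that the spread between them includes the adaptor. There pogo was at 1875 ± 214 CPM (SD, n = 2) in aubRK against 2972 in aubWT, a relative log2 value of -0.66 with an SD of 0.16 between the aubRK libraries. Bari1 was at 6440 ± 385 CPM (SD, n = 2) against 4568, a value of 0.50 with an SD of 0.086. For both elements the difference over read copies was larger than the spread between the 2 libraries but under 2-fold. Over entries Bari1 stood at 0.15 and pogo at -0.70. The 2 aubRK libraries then differed by relative log2 values of -0.87 for Bari1 and -0.59 for pogo, so the Bari1 difference was within the library difference. Over read copies S-element stood at -0.26 with an SD of 0.32, a difference smaller than its spread. mariner2 stood at -0.64 with an SD of 2.38. mariner2 was at -2.31 without the first aubRK library and at 0.94 without the second, so its direction depended on the library. Bari2 was past 2-fold (1.37), from 9 read copies in aubWT and 726 and 15 in aubRK, beside a background of 11.4%. It no longer passed with a pseudocount of 10 CPM. The 2 aubRK libraries themselves differed in mariner2 by a relative log2 value of 3.28, the largest difference of any transposon between them, where 4.88% of transposons were past 2-fold. The second library held 10 read copies of mariner2, all sense.

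In csul against w, none of the 5 elements was past 2-fold with either protein. With Aub, S-element stood at 0.02, Bari1 at 0.00, Bari2 at 0.07, pogo at -0.38, and mariner2 at -0.57, where 33.3% of all transposons were past 2-fold. With Ago3, Bari2 stood at 0.22, S-element at 0.19, mariner2 at 0.05, pogo at -0.22, and Bari1 at -0.29, where 27.6% were past 2-fold. In CPM each of the 5 was lower in csul than in w with both proteins, since the median over all transposons was itself lower, by -0.57 with Aub and -0.60 with Ago3.

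**Figure D3:**
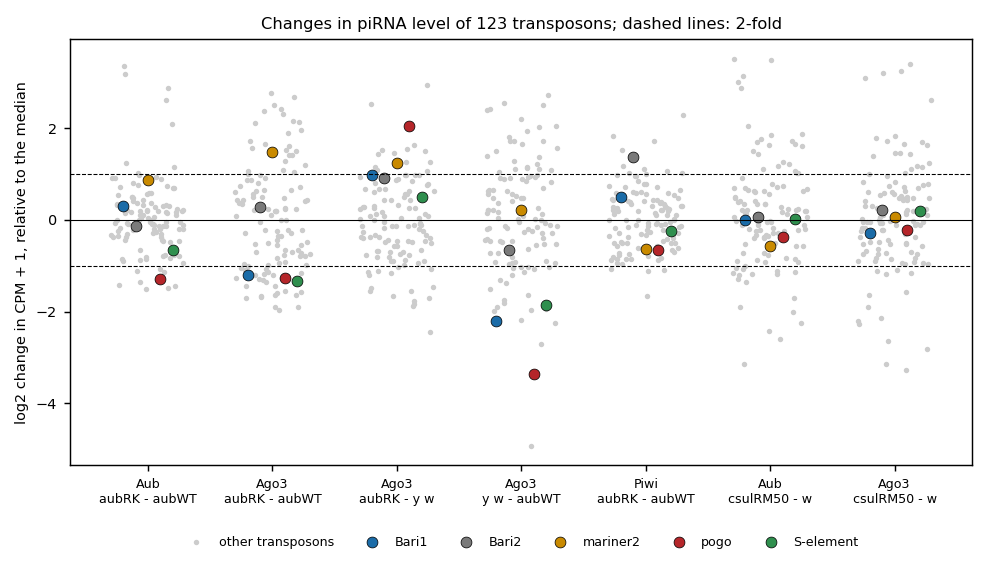
Relative log2 change in CPM + 1 of the 5 elements (coloured points) and the other 118 transposons (grey) in 7 comparisons of genotypes, with dashed lines at 2-fold. pogo lies at -1.30 with Aub and -1.27 with Ago3 in aubRK against aubWT but at 2.04 against y w, and all 5 elements lie within 2-fold in csul against w.

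The other Tc1/mariner elements listed were S2, HB, Tc1, Tc1-2, and Tc3. In Ago3 aubRK against aubWT none of these 5 was past 2-fold, with a median of 0.23, beside a median of -1.20 for the 5 elements above and 0 for all transposons. In y w against aubWT their median was -0.15, with Tc3 past 2-fold, beside -1.86. In csul against w only Tc1 passed, with Aub and with Ago3, being lower in csul. Of 10 DNA transposons of other superfamilies, among them hobo, P-element, hopper, 4 transib elements, and looper1, P-element and 1 other were lower past 2-fold in Ago3 aubRK against aubWT and higher against y w, as pogo was. Transib3 and looper1 were lower in csul with both proteins.

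By sense share the elements fell into different patterns. Bari1 had 45.2% sense piRNAs with Aub in aubWT, 45.3% in aubRK, 18.9% in w, and 21.5% in csul. With Ago3 it had 65.3% in aubWT, 50.6% in aubRK, 66.9% in y w, 43.7% in w, and 40.5% in csul. With Piwi it had 44.6% in aubWT and 41.0% and 38.8% in aubRK. The Ago3 aubRK value thus lay below both wild-type Ago3 libraries of the same antibody. Aub aubRK differed from Aub aubWT by 0.16 points over read copies (95% interval -0.16 to 0.48). Over entries, which leave out duplicated reads, that difference was -1.02 points with a wider interval of -2.77 to 0.74.

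pogo was mostly antisense with Aub, at 15.9% sense in aubWT, 24.2% in aubRK, and 35.7% in w, but at 56.5% in csul. With Ago3 it had 48.6% in aubWT, 27.2% in aubRK, 46.7% in y w, 59.2% in w, and 68.3% in csul. With Piwi it had 19.8% in aubWT and 26.3% in each aubRK library. In aubRK the values for all 3 proteins lay between 24.2% and 27.2%, whereas in aubWT they spread from 15.9% to 48.6%.

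S-element had 36.9% with Aub in aubWT, 37.6% in aubRK, 37.5% in w, and 33.0% in csul. With Ago3 it had 46.0% in aubWT, 37.2% in aubRK, 47.8% in y w, 51.8% in w, and 52.7% in csul. With Piwi it had 26.0% in aubWT and 36.4% and 30.6% in aubRK. Its Ago3 aubRK share was the lowest of the 5 Ago3 libraries and was close to the Aub shares.

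mariner2 had 21.7% with Aub in aubWT and 19.3% in aubRK, but 56.6% in w and 65.3% in csul. With Ago3 it had 49.2% in aubWT, 60.7% in aubRK, 63.4% in y w, 55.3% in w, and 40.8% in csul. Over entries the Aub aubRK share was 41.4%, against 19.3% over read copies. Bari2 reached 50 counts in 6 libraries only. Its Aub shares of 68.9% in aubWT and 6.43% in aubRK come from 9 entries each, and with Ago3 it had 52.9% in aubWT, 48.9% in aubRK, and 81.1% in y w.

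**Figure D4:**
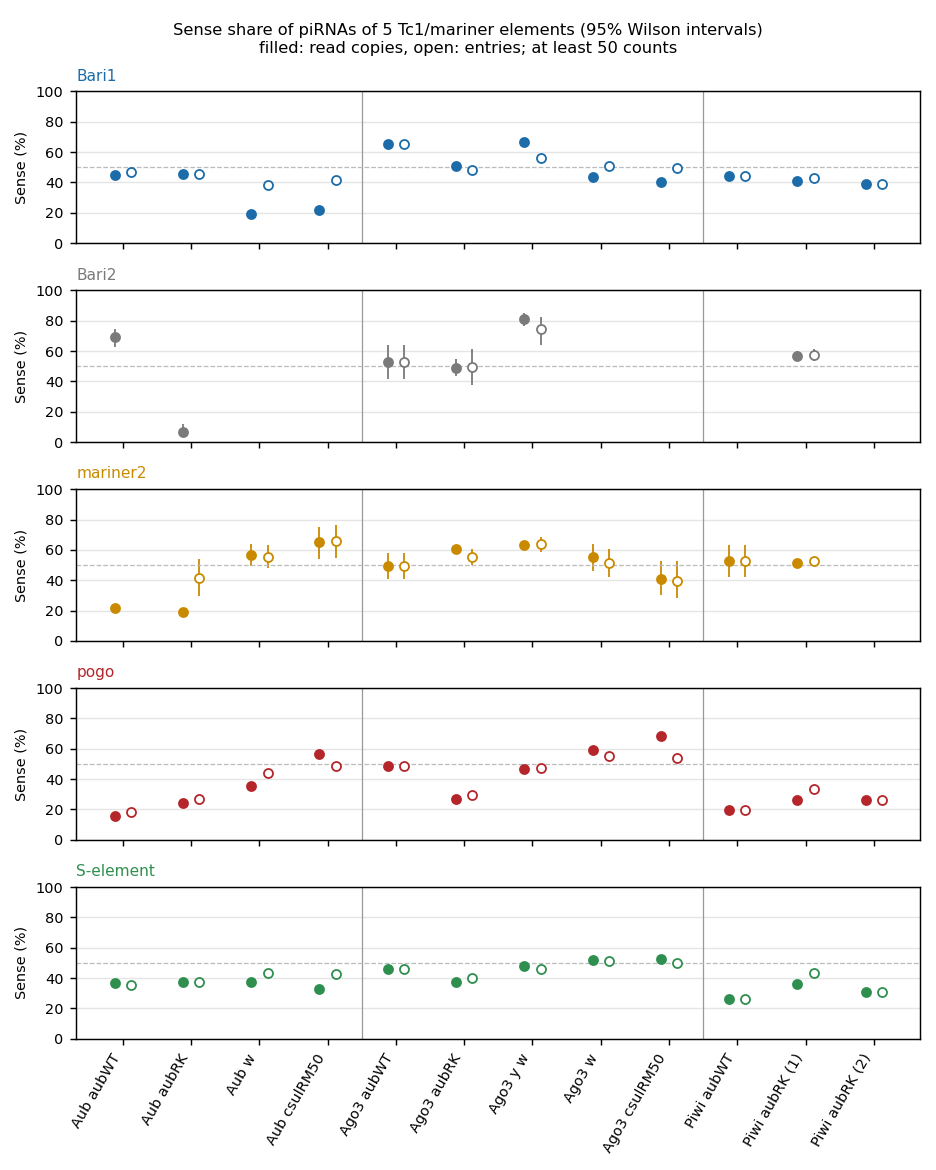
Sense share of each element (rows) in the 12 libraries, over read copies (filled) and entries (open) with 95% Wilson intervals, where at least 50 counts were present. The shares of Bari1, pogo, and S-element with Ago3 are lower in aubRK (50.6%, 27.2%, and 37.2%) than in aubWT or y w, and those of Bari1 with Aub in w and csul (18.9% and 21.5%) lie well below the shares over entries.

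The difference in Ago3 between aubRK and aubWT was -14.7 points for Bari1 (95% interval -15.1 to -14.2), -21.5 for pogo (-22.4 to -20.5), -8.82 for S-element (-9.45 to -8.19), -4.00 for Bari2 (-16.5 to 8.81), and 11.5 for mariner2 (2.34 to 20.5). Bari1, pogo, and mariner2 passed 10 points, as did 69.1% of all transposons. Over entries mariner2 stood at 6.09 points (-4.13 to 16.2) and did not pass. The median over all transposons was -14.4 points, so Bari1 was near it and pogo further down. Against y w the differences were -16.3 for Bari1, -19.5 for pogo, -10.6 for S-element, -32.2 for Bari2, and -2.76 for mariner2, of which 4 of 5 passed 10 points, beside 62.4% of all transposons. In entries the differences against y w were smaller for Bari1 (-8.28) and S-element (-5.71) and similar for pogo (-17.8). Between y w and aubWT themselves, Bari1 differed by 1.66 points, pogo by -1.97, and S-element by 1.82 over read copies, while mariner2 and Bari2 passed 10 points, beside 33.3% of all transposons. Over entries Bari1 differed by -9.12 between these 2 references. The sense share of pogo with Ago3 was therefore lower in aubRK than in either reference over read copies and over entries. The entries of Ago3 aubWT are molecules, so over entries only y w was counted as aubRK was.

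With Aub the differences between aubRK and aubWT were 8.32 points for pogo (7.79 to 8.85), 0.64 for S-element, 0.16 for Bari1, -2.34 for mariner2, and -62.5 for Bari2. Only Bari2 passed 10 points, beside 26.8% of all transposons. With Piwi, pogo differed by 6.43 points with an SD of 0.021 between the aubRK libraries, S-element by 7.52 with an SD of 4.08, and Bari1 by -4.66 with an SD of 1.52. None of these 3 passed 10 points, where 19.8% of all transposons did. Over entries pogo and S-element passed, at 10.1 and 11.1 points, but the first aubRK library carried both calls. Its entry shares were 33.6% for pogo and 43.5% for S-element, against 26.3% and 30.6% in the second library, which is barcoded. pogo was thus more sense in aubRK with Aub and Piwi and less sense with Ago3.

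In csul against w, pogo with Aub differed by 20.9 points (19.5 to 22.2), and Bari1 (2.58), mariner2 (8.69), and S-element (-4.57) did not pass 10, beside 33.1% of all transposons. Over entries pogo differed by 4.88 points (2.18 to 7.58), so that most of its difference was in the copies per sequence. With Ago3, mariner2 passed with -14.4 points, but its interval reached from -28.3 to 0.37. pogo stood at 9.02, S-element at 0.90, and Bari1 at -3.23, and 30.6% of all transposons passed. Over entries the pogo value was -1.29 with an interval of -4.23 to 1.65.

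The gap between both proteins, the sense share with Ago3 minus that with Aub, taken with its sign, was measured within each genotype. In aubWT it was 32.8 points for pogo, 27.5 for mariner2, 20.1 for Bari1, and 9.05 for S-element, and -16.1 for Bari2. In aubRK it was 2.96 for pogo, 5.28 for Bari1, and -0.41 for S-element (95% interval -0.94 to 0.11), and 41.3 for mariner2 and 42.4 for Bari2. Over entries the mariner2 gap in aubRK was 13.9 points, with an interval that reached 0. Ago3 had the higher sense share for 4 of 5 elements in aubWT and 4 of 5 in aubRK, beside 65% and 33.3% of all transposons. In aubRK the 4 include Bari2, on 9 Aub entries, and mariner2, on 58. Among the other Tc1/mariner elements listed it was 1 of 5 in each of these genotypes. In w Ago3 had the higher share for 3 of 4 elements, with 24.8 points for Bari1, 23.6 for pogo, and 14.2 for S-element. In csul the same held for 3 of 4, with 19.0, 11.7, and 19.7. The background was 88.4% in w and 83.5% in csul, and mariner2 was the exception in both. Over entries the gaps of Bari1, pogo, and S-element were smaller in w, at 12.6, 11.5, and 8.33 points. In csul they were 8.10, 5.32, and 7.15 over entries, and in aubWT 18.5, 30.5, and 10.6. In aubRK the gap over entries was 2.16 points for Bari1 and 3.12 for pogo. The S-element gap in aubRK was positive over entries (95% interval 1.03 to 4.95), so its sign there depended on the count used.

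From aubWT to aubRK the gap changed by -29.8 points for pogo (95% interval -30.9 to -28.7), -14.8 for Bari1 (-15.4 to -14.3), and -9.46 for S-element (-10.2 to -8.72). Over entries the changes were -27.4, -16.4, and -7.57. In aubWT the Ago3 library carried the random barcode and in aubRK neither library did, so adaptor and genotype cannot be told apart here. The gap of mariner2 changed by 13.8 points and that of Bari2 by 58.5 points, from a negative to a positive gap, both on few entries. The gap was lower in aubRK for 78% of all transposons, with a median change of -13.4 points, so a lower gap for 3 of 5 is no more than that background. Of 123 transposons 23 had a larger fall than pogo. Between w and csul the gap changed by -11.8 points for pogo, -5.81 for Bari1, -23.1 for mariner2 (-42.3 to -3.89), and 5.47 for S-element, and it was lower in csul for 78.5% of all transposons, with a median change of -6.40 points. Over entries S-element changed by -1.18 points (-4.09 to 1.72), so its direction depended on the count used.

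**Figure D5:**
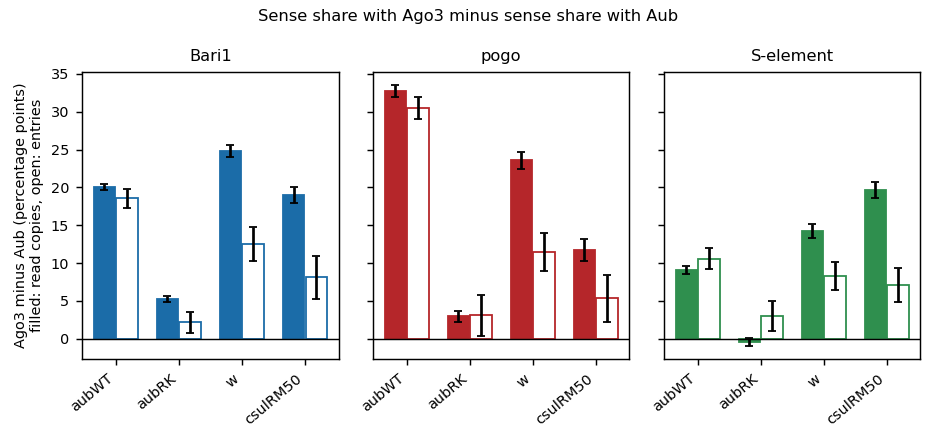
Sense share with Ago3 minus that with Aub, in percentage points, for the 3 abundant elements in 4 genotypes, over read copies (filled bars) and entries (open bars), with 95% intervals from the Wilson limits of both shares. Over read copies the gap of pogo is 32.8 points in aubWT and 2.96 in aubRK, that of Bari1 20.1 and 5.28, and that of S-element 9.05 and -0.41. Over entries the S-element gap in aubRK is positive.

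By strand, pogo with Aub changed by -0.63 on the log2 scale for sense counts alone and by -1.43 for antisense counts alone from aubWT to aubRK, each relative to the median of all transposons on that strand. With Ago3 the sense counts alone gave -1.40 and the antisense counts alone -1.09. Its Aub piRNAs were therefore lower on both strands and more so on the antisense strand, the strand that Aub typically carries.

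Between the proteins of one genotype, levels were compared in the same way. In aubWT only mariner2 was past 2-fold between Ago3 and Aub, lower with Ago3 at -2.36. Of all transposons 18.7% were past 2-fold in either direction, with 13 of 123 lower. In aubRK mariner2 (-1.59) and S-element (-1.06) were lower with Ago3, beside 26.8% in either direction and 12 of 123 lower. Over entries mariner2 stood at -0.30 and did not pass, and Bari1 passed at -1.15. In w and csul none of the 5 was past 2-fold, where only 2.44% and 0.813% of all transposons were. With Piwi against Aub, 4 of 5 elements were lower past 2-fold in aubWT. They ran from -1.26 for Bari1 to -1.67 for S-element, with pogo just short at -0.99. The background was 41.5% in either direction, with 23 of 123 transposons lower. Bari2 had 9 read copies with Piwi and did not pass with a pseudocount of 10 CPM, and mariner2 stood at -0.63 over entries. In aubRK 3 of 5 were lower, at -1.05 for Bari1, -1.26 for S-element, and -2.98 for mariner2, while Bari2 stood at 0.19 and pogo at -0.34. The background there was 31.7% in either direction, with 15 of 123 lower. The mariner2 value was -1.36 without the second Piwi aubRK library, -4.49 without the first, and -1.54 over entries, and Bari1 no longer passed without the first (-0.94). In these comparisons the antibody differs by design, in aubWT the adaptor of the Aub library differs from those of the other proteins too, and in aubRK the second Piwi library is barcoded while the first and the Aub library are not.

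The transposons most like each element, leaving out the other 4, were found by the mean absolute difference of log2(CPM + 1), centred on each transposon's own mean over the 12 libraries. S-element was nearest to the retrotransposons GATE (0.18) and roo (0.24), and Bari1 to FB (0.25), a foldback element, and 297 (0.26), a retrotransposon. pogo was nearest to roo (0.50) and hopper2 (0.55), mariner2 to transib1 (0.55) and S2 (0.60), and Bari2 to transib4 (0.34) and HB (0.35). Among the 5 elements themselves Bari1 and Bari2 differed least (0.44), then pogo and S-element (0.48), and pogo and mariner2 most (1.27). The median over all other transposons was between 0.85 and 1.38 for the 5 elements, and the likeness of Bari2 and mariner2 rests on low counts.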

How the data were processed

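Immunoprecipitates of Aub, Ago3, and Piwi from Drosophila ovaries gave 12 small RNA libraries of 11 conditions, grouped by the sample labels. The authors trimmed adaptors (Cutadapt 2.3, version from the submitters' processing notes), collapsed identical reads where a random barcode was present, and aligned reads end to end to FlyBase consensus transposon sequences with STAR 2.4.2a (same source). They deposited whole-number counts per transposon and orientation, without normalization, as read copies and as entries (identical reads counted once). A read that fits several consensus sequences equally well can count on each. In the 3 barcoded libraries both columns are equal.

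CPM were computed from the total on transposons, sense plus antisense. A row missing from a file was taken as 0. Level changes were log2 ratios of CPM + 1 minus the median over the 123 transposons that averaged 100 counts or more, called past 2-fold. Sense shares needed 50 counts, and changes were called past 10 points. For Piwi aubRK the mean of both libraries was used. The 95% intervals were Wilson for sense shares, exact Poisson for levels, and Newcombe for differences of shares. Those of log2 changes used a normal approximation to the counts and leave out the error of the median. Those of gap changes combined the half-widths of the Newcombe intervals. All cover counting error only, since reads without barcodes are not independent molecules. No test was run, since at least 1 group of each comparison had 1 library. The change of the gap between Ago3 and Aub was added after seeing the data. Python 3.11.15 and pandas 2.3.3 were used, with edgeR 4.0.16 and DESeq2 1.42.0 (R 4.3.3) for scaling alternatives only. The calls were tested on simulated Poisson counts with planted changes. These counts held no PCR duplicates and no variation between libraries, so they checked the computation only. The named elements are the 5 members, the 2 transposons with the nearest profile for each, and 2 lists of other DNA transposons, members of which are named where few passed. The members and lists were chosen with earlier results of these data known. Insertions come from the BDGP6 annotation.

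Alternatives were library totals without centring, TMM factors, DESeq2 size factors, pseudocount 10, dropping the filter, a filter at an average of 1000 counts, entries, each strand alone, minimum counts of 10 and 500 for sense shares, and leaving out each Piwi aubRK library. The consensus sequences were not used here.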

Additional observations from a re-analysis of the deposited data

Results flagged for a closer look

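The sense share of pogo was higher in aubRK than in aubWT with Aub, by 8.32 points, and lower with Ago3, where it differed by -21.5 points. The same change of genotype thus went in opposite directions with both proteins, beyond counting error over read copies and over entries. S-element (0.64 and -8.82 points) and mariner2 (-2.34 and 11.5 points) also differed in direction over read copies. Bari1 did too by sign (0.16 and -14.7 points), though its Aub interval of -0.16 to 0.48 holds 0. By sign, 4 of the 5 elements differed in direction, beside 47.2% of all 123 transposons. Higher with Aub and lower with Ago3 were 3 of 5, beside 37.4%, so the direction is not particular to pogo. The difference between the proteins was not tested, since each value rests on 1 library per genotype. The Ago3 aubWT library carried a random barcode that the other 3 lacked, and its part in this difference was not tested. Against y w, which shares the adaptor of Ago3 aubRK, the Ago3 difference was -19.5 points, as given above.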

How the results depend on the processing

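No paired analysis was possible because the groups compared share only the replicate number 1. The number of the 5 elements past 2-fold moved by over 1.5 times as follows. Library totals without centring gave 2 in Aub aubRK against aubWT, 2 in Ago3 aubRK against aubWT, 1 in Aub csul against w, 2 in Ago3 against Aub of aubWT, 1 in that of aubRK, 2 in Piwi against Aub of aubWT, and 1 in that of aubRK. TMM factors gave 1 in Ago3 aubRK against aubWT, 2 in Ago3 against Aub of aubWT, and 1 in that of aubRK, and DESeq2 size factors gave 4 in Ago3 aubRK against y w. A pseudocount of 10 gave 0 in Piwi aubRK against aubWT and 2 in Ago3 against Aub of aubWT, a mean of at least 1000 counts gave 0 in the former because Bari2 was no longer tested, and entries gave 2 in the latter. Sense counts alone gave 2 in Ago3 aubRK against aubWT, 5 against y w, 0 in Piwi, and 1 in Ago3 against Aub of aubRK, csul, and w, and antisense counts alone gave 2 in Aub aubRK against aubWT, 2 in Piwi, 2 in Ago3 against Aub of aubWT, 4 of aubRK, and 1 of csul. Sense counts alone reversed Bari2 in Piwi aubRK against aubWT (-0.052) and mariner2 in Ago3 against Aub of aubRK (0.26) and Piwi against Aub of aubWT (0.053). Leaving out each Piwi aubRK library gave 1 to 2 elements past 2-fold in Piwi, and the cause of these moves was not tested except where named.

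For changes in sense share past 10 points, entries gave 0 elements in Aub aubRK against aubWT, 2 in Ago3 aubRK against y w, 2 in Piwi, 1 in Ago3 against Aub of aubRK, 1 of csul, and 0 in Piwi against Aub of aubWT. A minimum of 10 counts gave 1 in Piwi, 2 in Aub and 2 in Ago3 csul against w, and 2 in Piwi against Aub of aubRK, since more elements were compared. A minimum of 500 gave 0 in Aub aubRK against aubWT, 0 in Ago3 y w against aubWT, 0 in Ago3 csul against w, 2 in Ago3 against Aub of aubWT, 1 of aubRK, and 1 in Piwi against Aub of aubWT, since Bari2 or mariner2 was no longer compared. Leaving out each Piwi aubRK library gave 0 to 1 in Piwi and 0 to 2 in Piwi against Aub. The share of the 5 elements by entries was 1.29% in Ago3 aubRK, 0.706% in Ago3 csul, 0.944% in Ago3 w, 0.771% in Ago3 y w, 1.98% in Aub aubRK, 2.19% in Aub aubWT, 0.741% in Aub csul, 1.00% in Aub w, and 1.31% in the first Piwi aubRK library. Depth limited Bari2, with 9 to 726 read copies a library, and mariner2, with 10 to 4068.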
